A study of Homo sapiens with 6 samples.

Results

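The genes described here encode the subunits and assembly factors of the proteasome, and most of their RNAs were slightly lower in Mon-Mac-6 cells given WD6305. They were chosen by a rule on gene symbols, set with earlier results of these data known. It took every row of the deposited gene table named PSMA, PSMB, PSMC, PSMD, PSME, PSMF or PSMG followed only by digits. It also took POMP and ADRM1. That rule found 48 of the 31853 genes in the table. Of these, 14 encode the constitutive 20S core, 3 the immunoproteasome (PSMB8, PSMB9 and PSMB10), 18 the 19S regulatory cap, 8 assembly factors, and 5 other activators or an inhibitor. The 3 WD6305 libraries came from cells given 500 nM WD6305 for 48 h, and the 3 DMSO libraries from cells given the vehicle for the same time. The series title names WD6305 as a PROTAC against METTL3, the enzyme that puts m6A marks on messenger RNA. A PROTAC is a small molecule that brings its target to an E3 ubiquitin ligase, so that the proteasome degrades it. Mon-Mac-6 is an established human line of monocytic leukaemia, and all libraries come from this 1 line. Separate cultures are not mentioned for the libraries of a group, so p-values measure the spread between these libraries, which may be technical.

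The proteasome is the protease that removes ubiquitin-tagged proteins. Its barrel, the 20S core, stacks outer rings of alpha subunits on inner rings of beta subunits, and only PSMB5, PSMB6 and PSMB7 among the constitutive beta subunits cut peptides. In immune cells and after interferon, PSMB8, PSMB9 and PSMB10 replace them and favour peptides that bind class I molecules. The 19S cap recognises ubiquitin, removes it, and unfolds the substrate with a ring of ATPases. When proteasome activity is short, the transcription factor NRF1, encoded by NFE2L1, raises proteasome genes together through antioxidant response elements in their promoters.

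Deposited counts summed to between 64525948 and 71155346 per library. The first principal component of log2 CPM held 30.7% of the variance and separated WD6305 from DMSO, while the second, with 25.4%, set WD6305 1 and DMSO 3 at one end. These same libraries, 1 of each group, lacked most of the epithelial marker RNA seen in the other 4. The summed FPKM of the 9 epithelial markers in the table was 2.79 in WD6305 1 and 62.5 and 62.1 in WD6305 2 and 3, against 3.18 in DMSO 3 and 76.2 and 69.9 in DMSO 1 and 2. WD6305 1 also stood apart on the 5 fibroblast markers, whose summed FPKM was 4.41 in it, 0.14 and 0.17 in WD6305 2 and 3, and 0.13 to 0.27 in DMSO libraries. All 8 monocytic markers were present, but their sum was nearly all LYZ, at 4967 to 5752 FPKM with WD6305 and 2891 to 3139 FPKM with DMSO. CD33, ITGAM, CD68 and CSF1R were, like LYZ, higher in every WD6305 library, whereas CD14 and MPO were lower in every one (CD14 7.38 to 8.39 FPKM with WD6305 and 9.99 to 10.3 FPKM with DMSO), and FCGR1A overlapped. The part of these marker lists in the results below was not tested, and counts of members called are given with and without WD6305 1 and DMSO 3.

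Promoter sequences are shown first for members that carry the core of the antioxidant response element, the element through which NRF1 is known to act on this gene family. RefSeq windows on GRCh38.p14, from 250 bases before to 50 bases after a RefSeq start, were found for 42 of the 48 members, 52 windows in all since some genes have more than 1 start. The core searched was TGAC, then NNN (any bases), then GCA, on both strands, and it occurred in the windows of 10 of these, or 23.8%, against 3.94% of the 27305 genes with a window. These 10 were ADRM1, PSMA4, PSMB3, PSMB9, PSMC5, PSMD1, PSMD3, PSMD9, PSMD12 and PSME4. Below are 50 bases upstream of one RefSeq start from 6 of them, read 5′ to 3′ on the strand of the gene, with the motif or its reverse complement in capitals. They cover the core (PSMA4 and PSMB3), the cap (PSMC5, PSMD12 and ADRM1) and the immunoproteasome (PSMB9).
PSMA4: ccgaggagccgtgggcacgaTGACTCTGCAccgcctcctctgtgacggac
PSMB3: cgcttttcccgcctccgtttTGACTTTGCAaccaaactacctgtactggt
PSMC5: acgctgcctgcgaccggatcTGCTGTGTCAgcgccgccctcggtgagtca
PSMD12: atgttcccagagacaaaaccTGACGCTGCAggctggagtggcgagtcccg
ADRM1: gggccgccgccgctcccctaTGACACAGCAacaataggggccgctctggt
PSMB9: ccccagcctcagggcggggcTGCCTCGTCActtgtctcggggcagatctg
The printed stretches lie at chr15:78540640-78540689 (plus strand) for PSMA4, chr17:38752617-38752666 (plus) for PSMB3 and chr17:63827643-63827692 (plus) for PSMC5. They lie at chr17:67366713-67366762 (minus) for PSMD12, chr20:62302739-62302788 (plus) for ADRM1 and chr6:32854023-32854072 (plus) for PSMB9. In PSMC5 and PSMB9 the motif is on the opposite strand. The stretches of PSMA4, PSMC5, ADRM1 and PSMB9 lie inside the longer span that the deposited table gives for the gene.

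A second motif, GAAA, then NN, then GAAA on either strand, which resembles the sites of interferon regulatory factors, occurred in the windows of 7 of 42 members, or 16.7%, against 4.38% of all genes with a window. It stood within 28 bases of a RefSeq start in PSMB8, PSMB10, PSME1 and PSME2, which are known as interferon-inducible members of the family, and was also found for PSMA4, PSMB4 and PSMG4. The 30 bases around it are shown for those 4, as above.
PSMB8: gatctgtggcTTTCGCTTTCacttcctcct
PSMB10: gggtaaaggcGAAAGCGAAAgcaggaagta
PSME1: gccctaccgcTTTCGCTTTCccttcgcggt
PSME2: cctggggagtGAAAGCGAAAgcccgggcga
These stretches lie at chr6:32844032-32844061 (minus strand), chr16:67936852-67936881 (minus), chr14:24136189-24136218 (plus) and chr14:24146619-24146648 (minus). Those of PSME1 and PSME2 lie inside, and that of PSMB8 partly inside, the span in the deposited table. The third motif searched, CCAAT on either strand, was in 20 of 42 member windows, or 47.6%, against 39.7% of all genes. No match of one motif overlapped a match of another in the member windows, and a match says only that the letters are present.

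All 48 members passed the filter on low counts. Of these, 34 fell under WD6305 and 0 rose, and 14 did not pass the test (quasi-likelihood test in edgeR, adjusted p under 0.05 by Benjamini-Hochberg over 18138 genes). Across all tested genes 11.2% were called lower and 12.2% higher, or 23.4% in either direction. No member was higher at an unadjusted p under 0.05 either. Members are abundant, and abundant genes are called more often: among the 7615 tested genes whose mean CPM reached that of the lowest member, 19% were called lower and 19.7% higher. The changes were small. The median log2 fold change of the members was -0.29, or 0.815-fold, against 0.00 for all tested genes, and the largest fall was 1.51-fold. The fitted log2 fold change was below 0 for 47 members, with PSMD7 as the exception, against 49.9% of all tested genes, and the DESeq2 fit called 37 lower and 0 higher. Without WD6305 1 and DMSO 3, edgeR called 32 lower and 0 higher. In bulk RNA, fewer cells of a type and less RNA per cell cannot be told apart.

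For 40 of the 48 members every WD6305 library lay below every DMSO library, which held for 20.3% of all tested genes. Each WD6305 library showed the shift. Its median over the members, relative to the mean of the DMSO libraries, was -0.35, -0.28 and -0.27 on the log2 scale in WD6305 1, 2 and 3, against 0.08, -0.04 and -0.03 in DMSO 1, 2 and 3. DMSO 1 was thus the library with the highest proteasome RNA, and without it the median log2 fold change of the members was -0.25 and 30 were called lower. Together the members took 0.531 ± 0.00683% of all counts with WD6305 and 0.678 ± 0.0251% with DMSO (mean ± SD, n = 3 libraries per group).

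**Figure D1:**
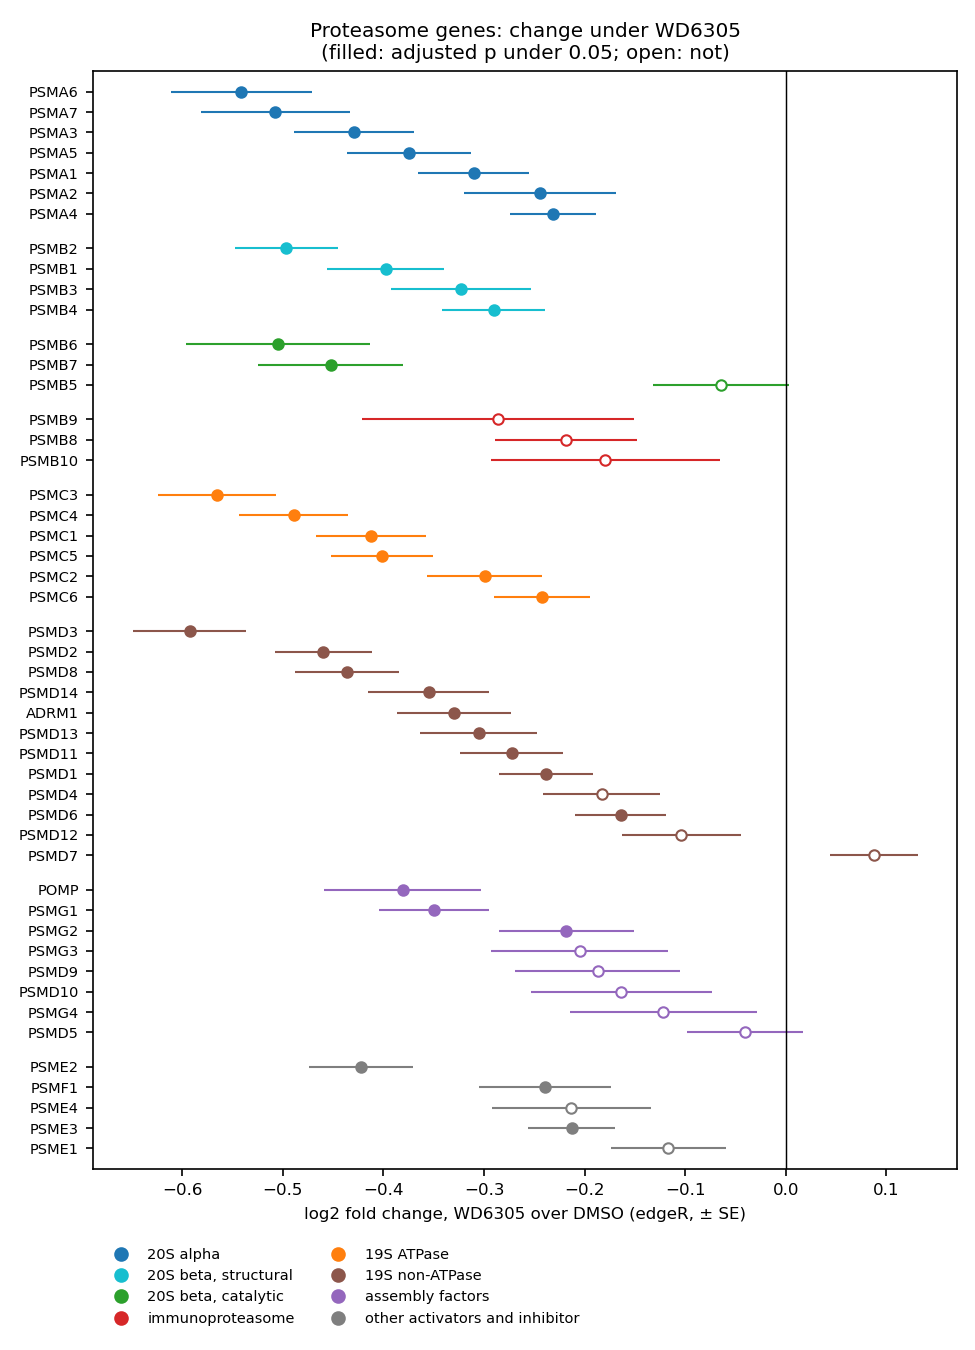
Log2 fold change of each of the 48 proteasome genes, WD6305 over DMSO, with its standard error (edgeR, 3 libraries per group), ordered within 8 role groups. Filled points passed at adjusted p under 0.05 (34 genes, all lower) and open points did not (14 genes); PSMD7 alone lies right of 0.

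In the constitutive 20S core, 13 of 14 subunits fell and 0 rose, with a median log2 fold change of -0.39 (12 without WD6305 1 and DMSO 3). The shares called lower were 11.2% of all tested genes and 19% of those at least as abundant as the lowest member. The 7 alpha subunits, which form the outer rings and the gate of the barrel, all fell. PSMA6 (ENSG00000100902, chromosome 14, 35278633 to 35317493, plus strand, GRCh38) fell the most. Its TMM-scaled level was 135.5, 135.0 and 145.0 CPM with WD6305 1, 2 and 3, against 220.8, 201.7 and 182.2 CPM with DMSO 1, 2 and 3. The groups were well apart (log2 fold change -0.54, SE 0.07, edgeR adjusted p = 0.000903). PSMA4 (ENSG00000041357, chromosome 15) fell the least, with 214.3, 200 and 206.7 CPM in WD6305 libraries against 245.1, 243.4 and 240.6 CPM in DMSO libraries, a log2 fold change of -0.23 (SE 0.04, adjusted p = 0.00499). PSMA7, PSMA3, PSMA5 and PSMA1 lay between them at -0.51, -0.43, -0.37 and -0.31.

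PSMA2 had the least certain call of the alpha subunits. It had 75.5, 82.5 and 79.2 CPM with WD6305, against 92.8, 84.7 and 103.6 CPM with DMSO, apart but with DMSO 2 close to WD6305 2 (log2 fold change -0.24, SE 0.08, edgeR adjusted p = 0.0466). The call was lost when any 1 library but DMSO 2 was left out (adjusted p = 0.0772 to 0.151) and without both WD6305 1 and DMSO 3 (0.172). It was also lost with limma on FPKM (0.0710 and 0.0760), with no filter on low counts (0.113) and with the replicate number as a block (0.0846). A second row of the table, ENSG00000256646, overlaps PSMA2 on the same strand. It held 7.53% as many counts as PSMA2 and had a log2 fold change of -3.16 (SE 0.55, adjusted p = 0.00359), and its part in the PSMA2 result was not tested.

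The 4 beta subunits without a protease site, PSMB1 to PSMB4, all fell, by log2 fold changes of -0.40, -0.50, -0.32 and -0.29. Of the 3 constitutive proteolytic subunits, PSMB6 and PSMB7 fell and PSMB5 did not pass the test. PSMB6 (ENSG00000142507, chromosome 17, 4796144 to 4798502), the caspase-like beta1 subunit, had 28.4, 35.2 and 33.3 CPM with WD6305, against 48.6, 43.8 and 45.2 CPM with DMSO. Its log2 fold change of -0.50 was the largest among the beta subunits (SE 0.09, adjusted p = 0.00452). PSMB7 (ENSG00000136930, chromosome 9), the trypsin-like beta2 subunit, had 110.2, 126.7 and 121.5 CPM with WD6305, against 177.9, 160.0 and 152.3 CPM with DMSO, and fell by 0.45 on the log2 scale (SE 0.07, adjusted p = 0.00245). For both genes the groups did not overlap.

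PSMB5 (ENSG00000100804, chromosome 14, 23016543 to 23034900, minus strand), the chymotrypsin-like beta5 subunit that clinical proteasome inhibitors bind, stood nearer to 0. It had 129.0, 143.2 and 136.6 CPM with WD6305, against 154.2, 130.9 and 142.2 CPM with DMSO, so the groups overlapped. The log2 fold change, -0.06, had an SE of 0.07 and a 95% interval of -0.22 to 0.09 (edgeR adjusted p = 0.557). The sign held in each of the 16 alternative fits, between -0.12 and -0.0041, and none called it. Whether PSMB5 differed from the other core subunits in its response was not tested.

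**Figure D2:**
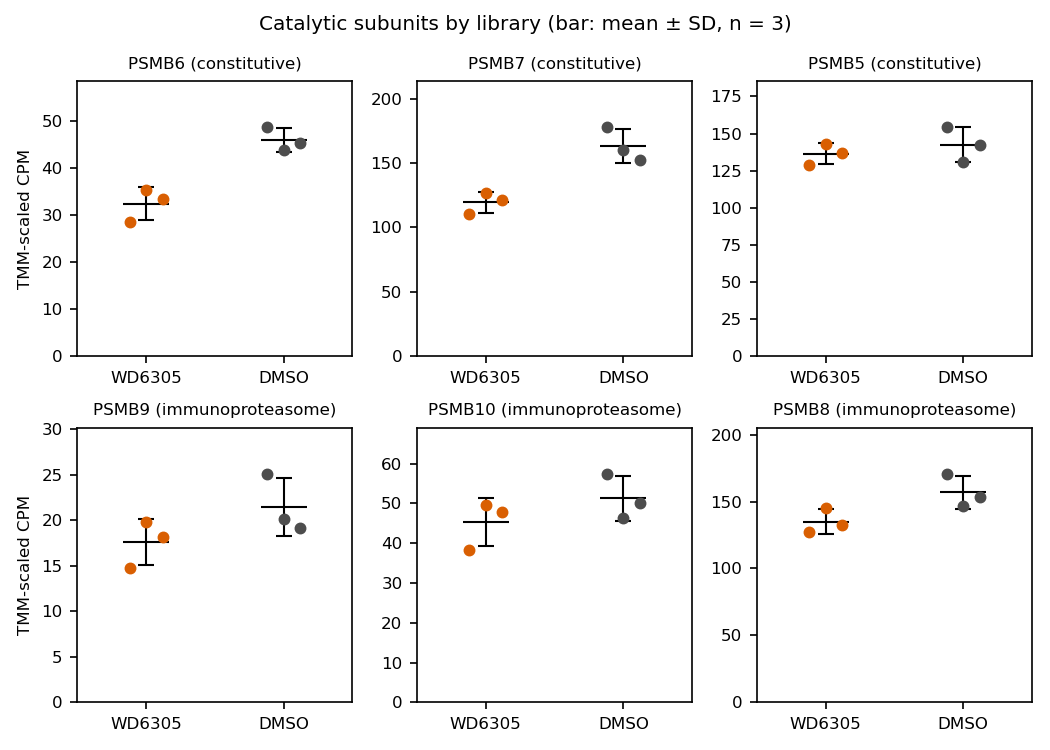
TMM-scaled CPM of the 3 constitutive catalytic subunits (top) and their 3 immunoproteasome counterparts (bottom) in each WD6305 and DMSO library, on axes from 0, with mean ± SD (n = 3). PSMB6 and PSMB7 are lower in every WD6305 library, while the groups overlap for PSMB5, PSMB9 and PSMB10.

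None of the 3 immunoproteasome subunits passed the test in edgeR (1 of 3, PSMB8, in DESeq2 and at an unadjusted p under 0.05), and each had a log2 fold change below 0. PSMB8 (beta5i, ENSG00000204264, chromosome 6, 32840717 to 32844047, minus strand) had 126.9, 145.2 and 132.5 CPM with WD6305, against 170.7, 146.5 and 153.6 CPM with DMSO. These groups did not overlap, although WD6305 2 and DMSO 2 were nearly level, and the log2 fold change was -0.22 (SE 0.07, unadjusted p = 0.0134, adjusted p = 0.0548). PSMB8 passed in DESeq2 (adjusted p = 0.0108). It also passed in edgeR with counts divided by 4 (0.0403), without WD6305 2 (0.0450) and with RLE, upper-quartile or no scaling factors (0.0483, 0.0342 and 0.0312).

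PSMB9 (beta1i, ENSG00000240065, chromosome 6, 32844136 to 32859851, plus strand) had 14.8, 19.8 and 18.2 CPM with WD6305, against 25.1, 20.2 and 19.1 CPM with DMSO, with overlapping groups (log2 fold change -0.29, SE 0.14, adjusted p = 0.167). PSMB10 (beta2i, ENSG00000205220, chromosome 16, 67934506 to 67936847, minus strand) had 38.3, 49.7 and 47.9 CPM with WD6305, against 57.4, 46.3 and 50.1 CPM with DMSO (-0.18, SE 0.11, adjusted p = 0.307). Among the WD6305 libraries, WD6305 1 was the lowest for each of these 3 genes, and among the DMSO libraries DMSO 1 was the highest. PSMB8 and PSMB9 lie side by side in the class II region with the peptide transporter genes. The span of PSMB9 overlaps TAP1 on the other strand (log2 fold change 0.15, SE 0.06, adjusted p = 0.103) and PSMB8-AS1 on its own strand (0.55, SE 0.08, adjusted p = 0.00178). TAP1 held 560% and PSMB8-AS1 134% as many counts as PSMB9. The sources used here do not say if the counting was stranded, so reads of PSMB9 cannot be told apart from theirs with certainty.

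Each immunoproteasome subunit was then set against the constitutive subunit whose place it takes, as a ratio of FPKM, a value per transcript length. The ratio of PSMB9 to PSMB6 was 0.225, 0.243 and 0.237 in WD6305 libraries, against 0.224, 0.199 and 0.183 in DMSO libraries. That of PSMB10 to PSMB7 was 0.382, 0.431 and 0.433 in WD6305 libraries, against 0.355, 0.318 and 0.361 in DMSO libraries. Both ratios were higher in every WD6305 library, by 0.22 and 0.27 on the log2 scale. The ratio of PSMB8 to PSMB5 went the other way, with a log2 difference of -0.16. It was 0.438, 0.451 and 0.432 in WD6305 libraries, against 0.493, 0.498 and 0.481 in DMSO libraries. PSMB9 and PSMB10 themselves did not rise (log2 fold changes of -0.29 and -0.18), while PSMB6 and PSMB7 had -0.50 and -0.45. The overlap of PSMB9 with TAP1 and PSMB8-AS1 bears on its ratio too.

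In none of the 3 pairs did the groups overlap. An exact two-sided permutation test over libraries gave p = 0.1 for each, the smallest that 3 against 3 allows, and 0.1 after adjustment over the 3 pairs. The PSMB9 groups were separated by little: WD6305 1 stood at 0.225 and DMSO 1 at 0.224. Without WD6305 1 and DMSO 3 the log2 differences were 0.19, 0.36 and -0.17 for the PSMB9, PSMB10 and PSMB8 ratios. In every library the constitutive subunit had the higher FPKM of each pair. For PSMB8 and PSMB5 that order depends on the division by length. Their mean CPM was 157 and 142 with DMSO, and 135 and 136 with WD6305.

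**Figure D3:**
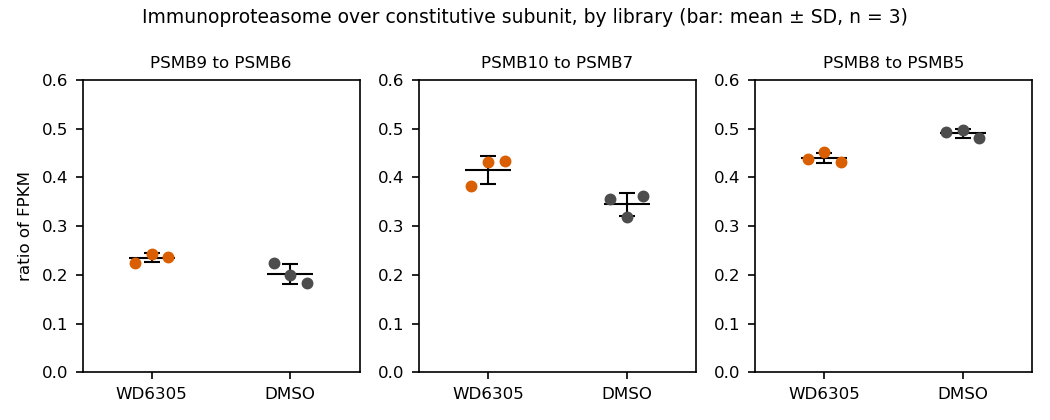
Ratio of FPKM of each immunoproteasome subunit to its constitutive counterpart in each WD6305 and DMSO library, on axes from 0, with mean ± SD (n = 3). The PSMB9 to PSMB6 and PSMB10 to PSMB7 ratios are higher in all WD6305 libraries, though PSMB9 and PSMB10 themselves did not rise. The PSMB8 to PSMB5 ratio is lower in all WD6305 libraries, and the exact test cannot go below p = 0.1.

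In the 19S cap, 15 of 18 subunits fell and 0 rose, with a median log2 fold change of -0.32 (14 without WD6305 1 and DMSO 3). As above, 11.2% of all tested genes were called lower, and 19% of those at least as abundant as the lowest member. The 6 ATPases PSMC1 to PSMC6, which form the ring that unfolds substrates, all fell, with a median of -0.41. PSMC3 (ENSG00000165916, chromosome 11, 47418769 to 47426442, minus strand) fell the most of these, with 136.9, 150.8 and 146.6 CPM in WD6305 libraries against 229.8, 207.4 and 205.8 CPM in DMSO libraries. That is a log2 fold change of -0.57 (SE 0.06, adjusted p = 0.000301, edgeR). PSMC6 (ENSG00000100519, chromosome 14) fell the least, with 80.5, 78.1 and 76.0 CPM in WD6305 libraries against 94.6, 91.9 and 91.1 CPM in DMSO libraries (-0.24, SE 0.05, adjusted p = 0.00666). PSMC4, PSMC1, PSMC5 and PSMC2 had log2 fold changes of -0.49, -0.41, -0.40 and -0.30.

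Among the 12 cap subunits without ATPase activity, 9 fell, 3 did not pass and 0 rose. PSMD3 (ENSG00000108344, chromosome 17, 39980807 to 39997959, plus strand), a subunit of the lid, fell the most of all 48 members. It had 130.6, 131.9 and 128.6 CPM with WD6305, against 209.3, 199.0 and 181.4 CPM with DMSO, which is 1.51-fold lower (log2 fold change -0.59, SE 0.06, adjusted p = 0.000213). The scaffold subunits of the base differed in size of change: PSMD2 had a log2 fold change of -0.46 and PSMD1 one of -0.24. The deubiquitinase of the lid, PSMD14, had 63.2, 65.6 and 65.2 CPM with WD6305, against 87.1, 77 and 84.3 CPM with DMSO, and fell by 0.36 on the log2 scale (SE 0.06, adjusted p = 0.00328).

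PSMD7 (ENSG00000103035, chromosome 16, 74296814 to 74306288, plus strand), the partner of PSMD14 in the lid, was the single member with a fitted change above 0. It had 103.6, 99.1 and 101.7 CPM with WD6305, against 95.5, 95.1 and 96.0 CPM with DMSO. Every WD6305 library was above every DMSO library, as held for 20.4% of all tested genes, yet the gene did not pass (log2 fold change 0.09, SE 0.04, adjusted p = 0.192, 95% interval -0.01 to 0.19). The sign was the same in all 16 alternative fits, from 0.05 to 0.10, and none called it. PSMD12, another lid subunit, had 158.1, 138.9 and 143.5 CPM with WD6305, against 152.1, 156.3 and 164.8 CPM with DMSO. The groups overlapped through WD6305 1 (log2 fold change -0.10, SE 0.06, adjusted p = 0.251).

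The ubiquitin receptors of the cap are PSMD4 and ADRM1, along with the scaffold PSMD2. ADRM1 (ENSG00000130706, chromosome 20) had 78.9, 85.8 and 89.7 CPM with WD6305, against 108.7, 105.5 and 105.5 CPM with DMSO (log2 fold change -0.33, SE 0.06, adjusted p = 0.00354). PSMD4 had 152.2, 167.8 and 159.2 CPM with WD6305, against 194.3, 174.8 and 174.9 CPM with DMSO, and narrowly missed (-0.18, SE 0.06, adjusted p = 0.0517). PSMD4 passed in DESeq2 (adjusted p = 0.0160), in limma on FPKM (0.0397 and 0.0402) and in edgeR with counts divided by 4 (0.0402), with any of the 3 other scalings (0.0244 to 0.0449) or without DMSO 3 (0.0394). PSMD6 had the smallest called change of the cap (-0.16, adjusted p = 0.0297), and lost the call without any 1 library but DMSO 2 (0.0517 to 0.105), without both WD6305 1 and DMSO 3 (0.0900) and with the replicate block (0.0786). The remaining members PSMD8, PSMD13 and PSMD11 fell by 0.44, 0.31 and 0.27.

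Of the 8 assembly factors 3 fell and 0 rose, and all 8 had log2 fold changes below 0. Of all tested genes 11.2% were called lower, 12.2% higher, and 49.9% had a log2 fold change below 0. The share called lower was 19% among genes at least as abundant as the lowest member. Whether the assembly factors differed from the subunits was not tested. POMP (ENSG00000132963, chromosome 13, 28659065 to 28678959, plus strand), the maturation protein that the finished core digests, fell the most. It had 84.9, 97.5 and 96.3 CPM with WD6305, against 133.6, 113.5 and 115.7 CPM with DMSO (log2 fold change -0.38, SE 0.08, adjusted p = 0.00827). PSMG1 and PSMG2, which pair as the first chaperone of the alpha ring, had log2 fold changes of -0.35 (adjusted p = 0.00227) and -0.22 (adjusted p = 0.0454). The call of PSMG2 was lost without any 1 library but DMSO 3 (0.0957 to 0.138), with the replicate block (0.116), with no filter (0.0692) and with limma on FPKM (0.0502 and 0.0572).

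The partner pair PSMG3 and PSMG4 did not pass. PSMG3 had 23.4, 24.6 and 28.1 CPM with WD6305, against 30.8, 28.5 and 28.5 CPM with DMSO (log2 fold change -0.20, SE 0.09, adjusted p = 0.132). PSMG4 had 17.5, 17.5 and 17.4 CPM with WD6305, against 19.4, 16.8 and 20.9 CPM with DMSO (-0.12, SE 0.09, adjusted p = 0.403). PSMG4 had the lowest FPKM of all members, and WD6305 libraries fell within the range of the DMSO libraries.

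None of the 3 chaperones of the cap base passed in edgeR or DESeq2, and PSMD9 alone had an unadjusted p under 0.05. PSMD9 had 27.2, 30.8 and 32.6 CPM with WD6305, against 35.2, 34.2 and 33.7 CPM with DMSO (-0.19, SE 0.08, adjusted p = 0.137). PSMD10, also known as gankyrin, had 32.0, 30.9 and 32.7 CPM with WD6305, against 40.4, 32.8 and 33.8 CPM with DMSO (-0.16, SE 0.09, adjusted p = 0.236). In both the groups did not overlap, but by small gaps. PSMD5 had 57.5, 53.3 and 57.4 CPM with WD6305, against 57.6, 57.8 and 57.5 CPM with DMSO, the change nearest to 0 among the members (WD6305 1 and DMSO 3 nearly level, log2 fold change -0.04, SE 0.06, adjusted p = 0.682, 95% interval -0.17 to 0.09).

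Of the alternative caps and the inhibitor, 3 of 5 fell and 0 rose. This count stands beside 11.2% called lower among all tested genes, and 19% among those at least as abundant as the lowest member. PSME1 and PSME2 together form the interferon-inducible activator PA28. They lie close together on chromosome 14, PSME1 (ENSG00000092010) from 24136163 to 24138967 on the plus strand and PSME2 (ENSG00000100911) from 24143362 to 24147570 on the minus strand. PSME2 had 98.1, 100.5 and 99.5 CPM with WD6305, against 141.5, 127.2 and 130.8 CPM with DMSO, and fell by 0.42 on the log2 scale (SE 0.05, adjusted p = 0.000704). PSME1 had 114.1, 123.2 and 119.4 CPM with WD6305, against 134.9, 131.9 and 120.0 CPM with DMSO (-0.12, SE 0.06, adjusted p = 0.183). The PSME1 groups overlapped, since DMSO 3 lay below WD6305 2, and the gene passed without DMSO 3 (adjusted p = 0.0395).

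PSME3, the nuclear activator, fell by 0.21 (adjusted p = 0.00788). PSME4, the large single-chain activator, had 85.0, 74.9 and 77.9 CPM with WD6305, against 89.1, 84.6 and 101.9 CPM with DMSO. These groups overlapped and it did not pass in edgeR (-0.21, SE 0.08, adjusted p = 0.0851), but did in DESeq2 (0.0239) and with upper-quartile factors (0.0369). PSMF1, which encodes the inhibitor PI31, fell by 0.24 (adjusted p = 0.0291). Its call was lost without any 1 library but DMSO 3 (0.0631 to 0.102), with the replicate block (0.0563) and with no filter (0.0738).

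The order of the members by level hardly moved. With WD6305 and with DMSO alike, PSMB4 had the highest FPKM and PSMG4 the lowest, a span of 66.9-fold and 75.1-fold. Spearman's rho between the FPKM of the 48 genes with WD6305 and with DMSO was 0.986, as a description across genes that share the same libraries. In the 14 core subunits, which assemble in equal numbers, FPKM spanned 11.9-fold with WD6305 and 12.2-fold with DMSO, with PSMB4 highest and PSMA2 lowest in both. These orders depend on the transcript length used for FPKM. In CPM the lowest core subunit was PSMB6, with means of 32.3 with WD6305 and 45.9 with DMSO, while PSMA2 had 79.1 and 93.7. PSMD2 had the highest CPM of all 48 members, with means of 382 and 525. The fold changes of the members tended to be larger for those with a higher FPKM with DMSO (Spearman's rho -0.39 between DMSO level and log2 fold change across 48 genes, a description since both use the DMSO libraries). Within groups, rho was -0.83 across the 6 ATPases and 0.18 across the 14 core subunits.

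**Figure D4:**
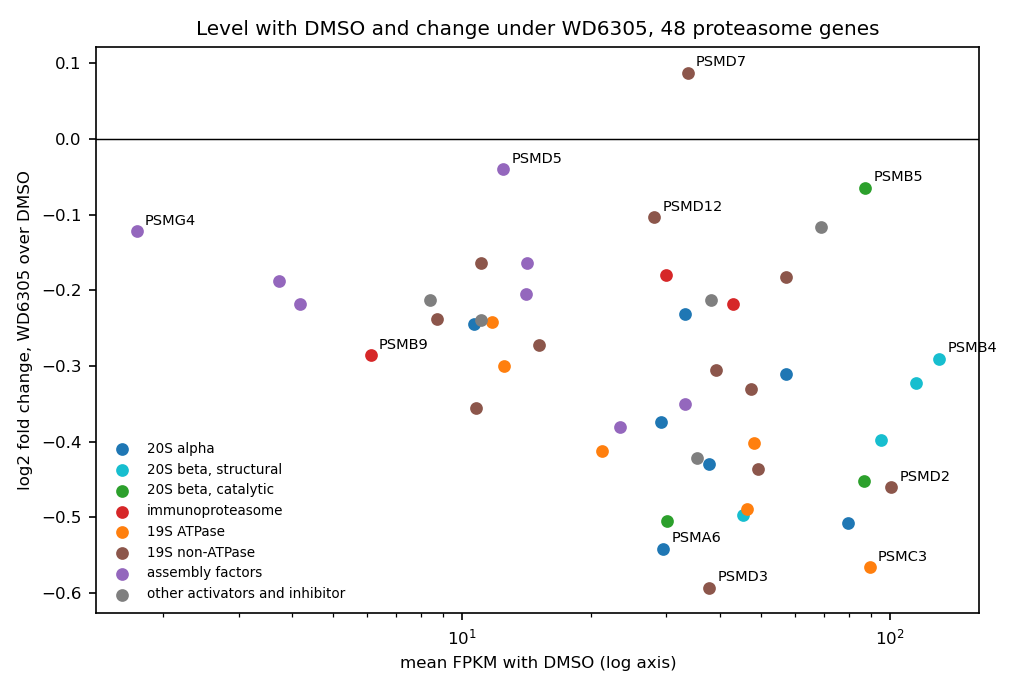
Mean FPKM with DMSO (log axis) against log2 fold change of WD6305 over DMSO for the 48 members, coloured by role. PSMB5, PSMD7 and PSMD5 lie nearest to 0, and the DMSO level of the 5 members that fell by over 0.5 ran from 29.5 FPKM (PSMA6) to 89.6 FPKM (PSMC3).

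Overlapping genes and copies could touch some members. For 11 of the 48, another row of the table overlapped the span of the gene and held at least 10% as many counts, in 10 of them on the opposite strand. Among the other 37 members 26 fell and 0 rose, with a median of -0.29, against 11.2% lower and 12.2% higher among all tested genes. PSMA3-AS1, on the opposite strand of PSMA3, had a log2 fold change of 0.41 (SE 0.08, adjusted p = 0.00856), while PSMA3 had -0.43. BECN1, opposite PSME3 with 35.5% as many counts, had 0.27 (edgeR adjusted p = 0.00776). Others went the same way as the member. FTSJ3, opposite PSMC5 with 87.1% as many counts, had -0.17 (adjusted p = 0.0226). PMPCB, on the same strand as PSMC2 with 63.4%, had -0.23 (adjusted p = 0.0522). The part of these rows in the member results was not tested. Pseudogenes named after 10 members were also in the table, and their summed counts reached at most 3.40% of the parent, for PSMC1.

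Fold changes were then set beside the promoter motifs. The median log2 fold change was -0.26 for the 10 members with the antioxidant core, of which 6 fell, and -0.29 for the 32 without it, of which 24 fell. For the 7 members with the interferon-type motif it was -0.22, with 3 lower, and for the 35 without it -0.31, with 27 lower. For CCAAT the values were -0.33 and 16 lower among 20 with it, and -0.24 and 14 lower among 22 without it. These are descriptions of the groups with no test. For comparison, 11.2% of all tested genes were called lower, and 19% of those at least as abundant as the lowest member. The 6 members printed above with the first motif include PSMC5, PSMB3, PSMA4 and ADRM1, which fell, and PSMD12 and PSMB9, which did not pass.

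Around the proteasome, a list of 44 further genes of the ubiquitin-proteasome system was examined, and all 44 were tested. Of these 12 fell and 5 rose, with a median log2 fold change of -0.10, against 11.2% lower and 12.2% higher among all tested genes, and 19% and 19.7% among those at least as abundant as the lowest member. These counts moved with single settings: 7 were lower without WD6305 3, 8 were higher without DMSO 3, 7 were lower with the replicate block, and 17 were lower with upper-quartile factors. Without WD6305 1 and DMSO 3, 8 were called lower and 7 higher. NFE2L1, the regulator of proteasome genes, had 249.5, 256.1 and 264.1 CPM with WD6305, against 281.9, 286.3 and 284.2 CPM with DMSO. It was lower in every WD6305 library by a small margin (log2 fold change -0.15, SE 0.04, adjusted p = 0.0323). Each fit that left out a single library other than DMSO 3 lost that call (0.0619 to 0.122), as did those without both WD6305 1 and DMSO 3 (0.0825), with the replicate block (0.0783) and with no filter (0.0506). NGLY1, the glycosidase that processes NRF1, rose by 0.29 on the log2 scale (adjusted p = 0.00463). MAFK, a small MAF partner of NRF1, fell by 0.35 (adjusted p = 0.0197), and did not pass when DMSO 1, WD6305 1, WD6305 3 or the pair WD6305 1 and DMSO 3 were left out (0.0536 to 0.0676), nor with the replicate block (0.0690).

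NFE2L2, which encodes the related factor NRF2, was the other gene called higher among the 7 of the NRF1 axis and is named after its values were seen. It had 128.3, 112.9 and 116.1 CPM with WD6305, against 85.5, 86.5 and 109.5 CPM with DMSO (log2 fold change 0.34, SE 0.10, adjusted p = 0.0332). WD6305 libraries were higher, DMSO 3 being the nearest. The call of NFE2L2 was lost without any 1 library but DMSO 3 (0.0607 to 0.118), with no filter, the replicate block or library sizes alone (0.0515 to 0.0958) and with limma on FPKM (0.0858 and 0.0918).

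Of the 12 factors bound to the proteasome, 3 fell, a count to be read against the 11.2% and 19% above. USP14, a deubiquitinase that docks on the cap, had 108.9, 106.8 and 104.5 CPM with WD6305, against 132.7, 130.2 and 133.7 CPM with DMSO, and fell by 0.31 on the log2 scale (SE 0.04, adjusted p = 0.00125). TXNL1, a thioredoxin-like protein of the cap, fell by 0.30 (adjusted p = 0.00189), and AKIRIN2, which helps bring proteasomes into the nucleus, fell by 0.20 (adjusted p = 0.0299). AKIRIN2 did not pass when DMSO 1, DMSO 2, WD6305 2 or WD6305 3 was left out (0.0563 to 0.105), nor with the replicate block (0.0855). Of the shuttle proteins that carry ubiquitylated substrates, RAD23B had a log2 fold change of -0.11 and did not pass (adjusted p = 0.121), except with upper-quartile factors (0.0388). UBQLN4 fell by 0.20 (adjusted p = 0.0187), and missed the threshold when DMSO 2, WD6305 2 or WD6305 3 was left out (0.0653 to 0.0940) and with the replicate block (0.0551).

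UBA1, the main ubiquitin-activating enzyme, had 465.7, 489.4 and 446.1 CPM with WD6305, against 658.3, 630.8 and 596.4 CPM with DMSO, and fell by 0.43 (SE 0.06, adjusted p = 0.000878). RPS27A, which encodes ubiquitin fused to a ribosomal protein, had a log2 fold change of -0.17 and did not pass (adjusted p = 0.145), except in DESeq2 (0.0485). Of the 6 genes of the p97 unfoldase and its cofactors, 3 fell. Across all tested genes 11.2% were called lower, and 19% among those at least as abundant as the lowest member. FAF1 and FAF2 fell by 0.26 each (adjusted p = 0.00355 and 0.00571), and VCP, which encodes p97 itself, by 0.15 (adjusted p = 0.0434). VCP did not pass in fits leaving out any library other than DMSO 3 (0.0604 to 0.169), without both WD6305 1 and DMSO 3 (0.0582), with the replicate block (0.0966) and with no filter (0.0714).

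Downstream of the immunoproteasome, 3 of 8 genes of peptide handling and interferon regulation rose and 1 fell. Across all tested genes 12.2% were called higher and 11.2% lower. Among those at least as abundant as the lowest member the shares were 19.7% and 19%. ERAP1, which trims peptides in the endoplasmic reticulum, had 64.1, 60.1 and 67.1 CPM with WD6305, against 41.9, 43.6 and 46.1 CPM with DMSO, and rose by 0.54 (SE 0.07, adjusted p = 0.000764). TAPBP and B2M, a peptide-loading factor and the light chain of class I molecules, rose by 0.36 (adjusted p = 0.00188) and 0.35 (adjusted p = 0.00405). TAP2, a peptide transporter subunit named after its values were seen, fell by 0.16 (adjusted p = 0.0465). It lost that call without any 1 library but WD6305 2 (0.0689 to 0.183), without both WD6305 1 and DMSO 3 (0.136), with the replicate block (0.101) and with no filter (0.0896).

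**Figure D5:**
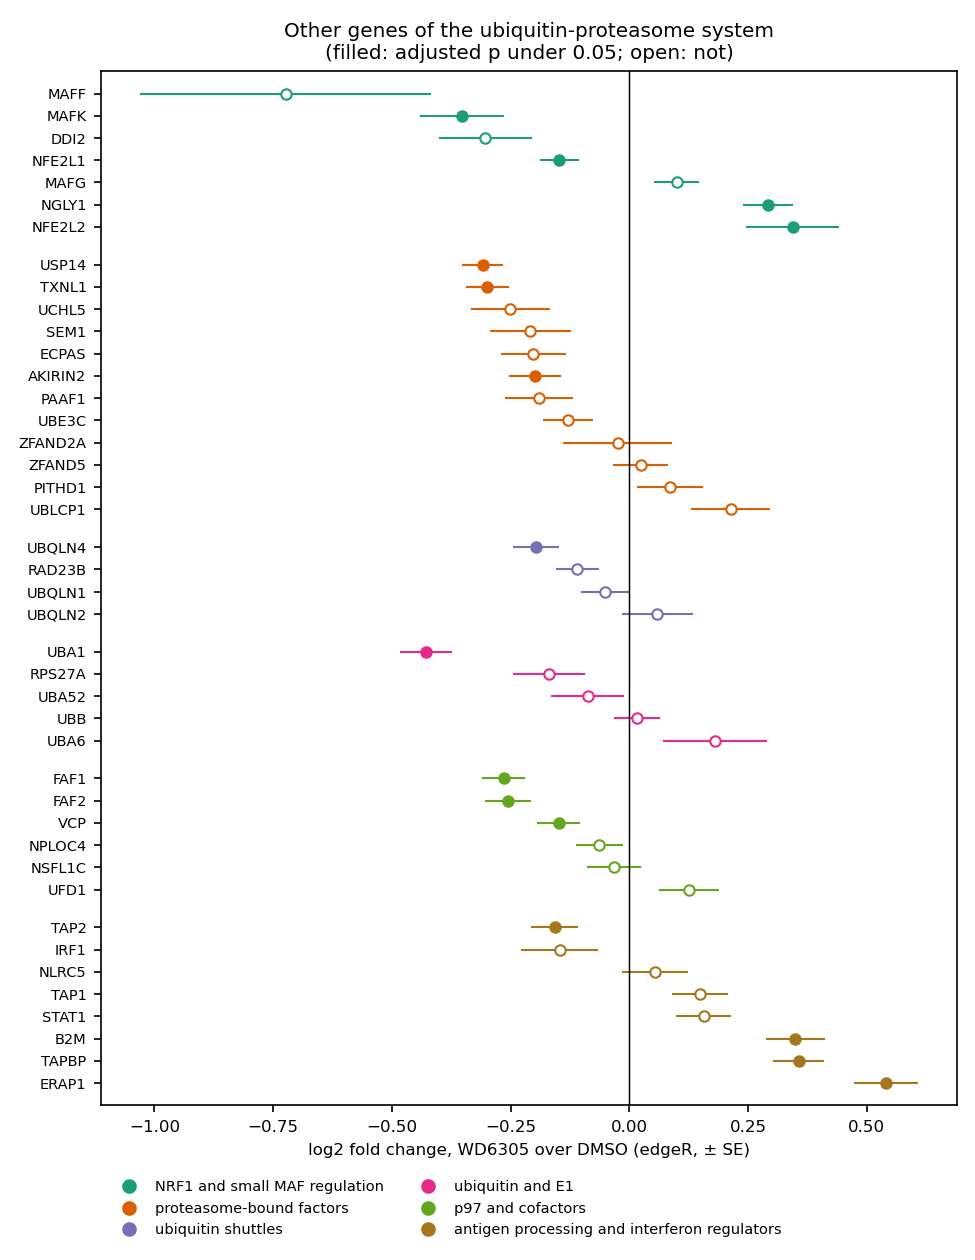
Log2 fold change, WD6305 over DMSO, with its standard error (edgeR, 3 libraries per group) for 42 of the 44 other genes of the ubiquitin-proteasome system in 6 blocks. Filled points passed at adjusted p under 0.05, 11 lower and 5 higher of those plotted; UBA1 had the largest called fall among them and ERAP1 the largest called rise.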

How the data were processed

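The submitters' processing notes name GRCh38 and the tools fastp, HISAT2, StringTie and edgeR, without versions. Per the file headers, the deposited table gives each gene estimated counts and FPKM in 6 libraries, with 0 other sample columns. The deposited estimated counts are whole numbers, with an excess at multiples of 4: between 1071 and 1176 genes per library had a count of 4, against 553 to 636 with a count of 3. Since a fragment may count more than once, no counting interval is given, and errors are the spread between libraries. The FPKM values, made by the authors, are per transcript length and library size.

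Counts entered edgeR 4.0.16 in R 4.3.3 (filterByExpr, TMM, quasi-likelihood, two-sided, Benjamini-Hochberg over all 18138 tested genes, threshold 0.05, no replicate block). CPM are relative to TMM-scaled library sizes. Standard errors are the log2 fold change divided by the square root of F. The common dispersion gave a biological coefficient of variation of 20.8%. Alternatives used DESeq2 1.42.0, limma 3.58.1 on log2(FPKM + 1) and log2(FPKM + 0.1), other scalings and filters, and fewer libraries. Fits were tested on simulated data whose set changes were larger than those of most members, so smaller changes were not covered. Library pairs within groups differed by more than counting noise (chi-square per degree of freedom 3.77 to 10.5 on counts divided by 4), so none was treated as a duplicate.

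The members and gene lists were chosen with earlier results of these data known. Values in every library are given for the catalytic subunits, the largest and smallest change of each role group (the 7 constitutive 20S beta subunits taken as 1 group) and the members that did not pass. PSMD14, ADRM1 and genes described as such were named after their values were seen. From the 44 other genes, NFE2L1 and up to 3 per block with the smallest adjusted p are named; 2 of the 44 are counted but not reported singly here. Promoter sequences are from RefSeq, GRCh38.p14. PSMA7, PSMB1, PSMB6, PSMB7, PSMD4 and PSMG3 had no promoter entry.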

Additional observations from a re-analysis of the deposited data

How the results depend on the processing

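Of the 48 members, 40 kept the same direction and the same side of the threshold in all 16 alternative fits, and no member changed sign in any of them. The other 8 (PSMA2, PSMD6, PSMF1 and PSMG2, whose calls were lost in some fits, and PSMB8, PSMD4, PSME1 and PSME4, which gained one) are given with their values in the report. The number of members called lower was 30 to 37 and the number called higher was 0 in each fit. Leaving out 1 library gave 30 to 34 lower members, 12 to 13 in the core and 14 to 15 in the cap, and a median log2 fold change of the members between -0.33 and -0.25. It gave 7 to 12 lower and 4 to 8 higher genes among the other 44. With the replicate number as a block, 30 members and 7 of the other 44 genes were called lower, and the count over all genes was 3204 against 4249. Same-numbered libraries did not deviate together (correlations of -0.18, 0.08 and -0.15 over tested genes), so the numbers were not taken as pairs. The highest correlation between libraries of different groups was 0.26, for WD6305 1 and DMSO 3. Both were left out together in an alternative fit, and no block was fitted for them. For the 3 subunit ratios the mean within-number difference equals the difference of means. The count over all genes was 2756 without WD6305 3; fewer libraries entered that fit. The 3 subunit ratios kept their sign in each of 10 alternatives, without 1 library between 0.16 and 0.30 for PSMB9 to PSMB6, 0.21 and 0.33 for PSMB10 to PSMB7, and -0.17 and -0.14 for PSMB8 to PSMB5. The smallest p that 3 against 3 allows limits these tests. Among the members, the intervals of the log2 fold change were widest for PSMB9 (-0.59 to 0.02), PSMB10 (-0.44 to 0.08) and PSMG4 (-0.33 to 0.09). Reads of overlapping genes cannot be separated with certainty.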
